A study of Mus musculus with 6 samples.

Results

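The genes that encode the proteasome were examined in antiviral CD4+ T cells of mice that differed in surface CD25. Members were the protein-coding genes whose symbol is Psma, Psmb, Psmc, Psmd or Psme followed by a number. The annotation holds 43 such genes, and 42 of them have a row among the 15445 rows of the deposited count table. Psmb11 has no row. Of the 42 genes, 5 encode immunoproteasome subunits (Psmb8, Psmb9, Psmb10, Psme1 and Psme2), 36 encode constitutive subunits or assembly factors, and Psma8 is a core subunit known from testis. All 42 passed the filter on low counts, so no member was left out of the tests.

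The proteasome is the protease that degrades proteins tagged with ubiquitin. Its barrel-shaped 20S core has outer rings of alpha subunits, which form the gate, and inner rings of beta subunits, some of which carry the proteolytic sites. A 19S regulatory particle with a ring of ATPases and a set of non-ATPase subunits recognises, unfolds and feeds in the substrate. Interferon induces alternative catalytic subunits that take the place of the constitutive ones during assembly (Psmb8 for Psmb5, Psmb9 for Psmb6 and Psmb10 for Psmb7) together with the PA28 cap encoded by Psme1 and Psme2. The resulting immunoproteasome is abundant in lymphocytes and supplies peptides for MHC class I. The factor NRF1 drives the constitutive genes from antioxidant response elements when proteasome activity is short.

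The study sequenced RNA from transgenic T cells of a single specificity, sorted from the spleen on CD4, Thy1.1 and CD25 at day 5 of infection with lymphocytic choriomeningitis virus (LCMV). All mice were labelled C57BL/6, and all cells in both groups came from infected mice and carried the transgene. There were 3 CD25-high and 3 CD25-low libraries, numbered 1 to 3 in each group. CD25, the product of Il2ra, raises the affinity of the receptor for interleukin-2. The labels do not name the receptor transgene, and do not say whether each library is from its own animal or from a pool. P-values therefore reflect how far these libraries scatter, and that scatter may be technical.

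Motifs were searched in the 250 bases before the RefSeq start of each gene, on both strands, for the elements through which interferon and NRF1 are known to act. A RefSeq promoter (GRCm38.p6) was matched for 35 of the 42 members and for all 5 immunoproteasome genes. A gene counted as matched if any of its promoters held the motif. The antioxidant response element TGACNNNGC was found in 5 members (Psmb5, Psmb6, Psmc6, Psmd12 and Psmd9) and in 11.5% of all 27025 genes with a promoter. The interferon-stimulated response element (2 GAAA blocks, 2 bases apart) was found in 3 members (Psmb3, Psmd4 and Psmd9) and in 3.46% of all these genes, and in 0 of the 5 immunoproteasome genes. The STAT site TTCNNNGAA was found in Psmb8 alone among members, and in 8.13% of all genes with a promoter. The stretches below show a match in the constitutive catalytic genes Psmb5 and Psmb6, in the immunoproteasome gene Psmb8, and the interferon element in 2 constitutive genes. Each is written 5′ to 3′ in the direction of its gene, with the match in capitals. For Psmb8 the RefSeq start lies inside the gene as annotated for the counts (from chr17:34197721), so its match is not upstream of that gene's first base. The same holds for Psmd9 (gene from chr5:123169413). A match describes these letters only and is not evidence of binding.
Psmb6, antioxidant response element, chr11:70525107-70525356, plus strand: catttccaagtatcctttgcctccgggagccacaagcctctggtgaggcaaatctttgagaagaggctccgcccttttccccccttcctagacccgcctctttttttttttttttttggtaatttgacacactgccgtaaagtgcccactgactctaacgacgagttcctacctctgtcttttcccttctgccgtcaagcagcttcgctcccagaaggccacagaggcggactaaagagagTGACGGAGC
Psmb5, antioxidant response element, chr14:54618024-54618052, minus strand: cgtgaagttgTGACGTCGCggcgttgcca
Psmb8, STAT site, chr17:34198088-34198116, plus strand: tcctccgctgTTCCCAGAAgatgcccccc
Psmb3, interferon element read on the opposite strand, chr11:97703261-97703290, plus strand: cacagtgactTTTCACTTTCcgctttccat
Psmd4, interferon element read on the opposite strand, chr3:95042675-95042704, minus strand: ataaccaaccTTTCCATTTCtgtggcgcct

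Total counts were 16787233 to 23567066 per library, and mitochondrial genes took 32.04% to 38.27% of them. Il2ra, the gene behind the sort, was at 1536, 432 and 666 CPM (reads scaled to a common library total) in CD25-high libraries 1, 2 and 3 and at 20.7, 29.4 and 35.7 CPM in the CD25-low libraries (1, 2 and 3). The groups were far apart (log2 fold change of CD25-high relative to CD25-low 4.94 ± 0.47 SE, edgeR adjusted p = 0.00173). The 6 T cell markers summed to 2684 to 3632 CPM in all libraries. Of these, Cd3d (log2 fold change -0.95) and Cd3g (-0.82), chains of the T cell receptor complex, had separate groups and fell with the replicate block described below (edgeR adjusted p = 0.0134 and 0.0135, against 0.204 and 0.279 without it). Both block calls were lost without pair 1, the libraries numbered 1 (edgeR adjusted p = 0.0729 and 0.0621). Separate groups with CD25-high below were found in 9.54% of all tested genes. The other T cell markers did not pass with edgeR, the block or DESeq2. Cd3e, of the same complex, was at -0.14, Cd4 at -0.23 and Cd28 at -0.28. Thy1 was at 0.46, in the other direction (edgeR adjusted p with the block 0.0753). Among markers of other cells, Ms4a1 and Cd79a of B cells and Cd14 and Adgre1 of myeloid cells had no row. Summed B cell markers were 3.21 to 10.4 CPM in the CD25-high and 8.44 to 15.4 CPM in the CD25-low group, and Cd22 among them was lower in CD25-high in 3 of 3 pairs (edgeR adjusted p with the block 0.117). Summed myeloid markers were 30.1 to 101 CPM in CD25-high and 18.8 to 48.7 CPM in CD25-low libraries. Itgam alone, which activated T cells can also express, was at 21.1, 77.2 and 71.6 CPM in the CD25-high group and 5.03, 26.3 and 32.1 CPM in the CD25-low group. It was higher in CD25-high in 3 of 3 pairs and rose with the block (log2 fold change 1.57, edgeR adjusted p = 0.0013), but not without it (0.433). The part of other cells in the results below was not tested. In bulk RNA, fewer cells of a kind and less RNA per cell cannot be told apart.

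No proteasome gene differed between CD25-high and CD25-low cells past the threshold. With edgeR's quasi-likelihood test, adjusted over all 12987 tested genes, 0 of 42 members had an adjusted p under 0.05, against 0.655% of all tested genes (0.154% higher and 0.501% lower in CD25-high cells). At an unadjusted p under 0.05 the count was again 0 of 42, against 11.1% of all genes. DESeq2 also called 0 of 42 (2.44% of all genes, 0.752% higher and 1.69% lower), and 0 at an unadjusted p under 0.05 (12% of all genes). The labels do not say whether libraries of the same number come from the same animal. The numbers were taken as pairs because deviations from the group mean correlated within them (0.34, 0.19 and 0.16). CD25-high library 2 with CD25-low library 3 also reached 0.13. A fit with the number as a block called 0 of 42 (4.63% of all genes, 1.73% higher and 2.9% lower), while 7 had an unadjusted p under 0.05 (18.1% of all genes). The lowest adjusted p among members was 0.458 with edgeR, 0.112 with the block and 0.41 with DESeq2.

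The intervals around the fold changes were narrow for most members. The median log2 fold change was -0.01 over the 42 members and 0.01 over all tested genes, and the median size of the change without its sign was 0.14 and 0.33. The 95% interval lay within 2-fold in either direction for 35 of 42 members, and for 37.5% of all tested genes. For 8 of 42 it lay within 1.5-fold, against 6.66% of all genes. Members were well counted, with 1323 to 37843 reads over the 6 libraries apart from Psma8, and their median SE was 0.23 against 0.37 over all tested genes. Summed over all members, the total stood at 3510, 3465 and 3815 CPM in the CD25-high libraries (1, 2 and 3) and at 4070, 3274 and 3360 CPM in the CD25-low libraries (1, 2 and 3). Those sums overlapped.

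**Figure D1:**
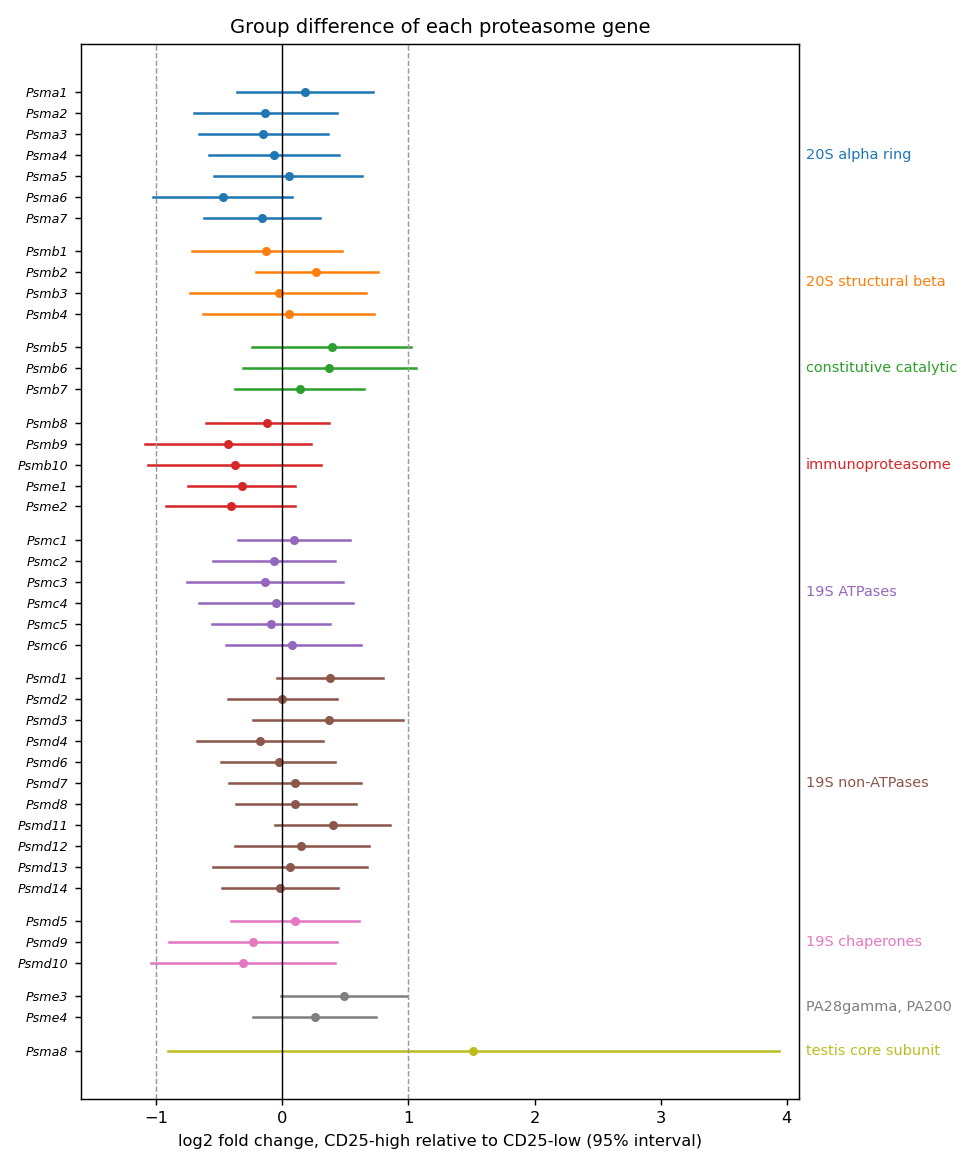
Log2 fold change of CD25-high relative to CD25-low for the 42 proteasome genes, grouped by role, as points with 95% intervals from edgeR; dashed lines mark a 2-fold difference in either direction. Fold changes of all 5 immunoproteasome genes lie below 0 and those of the 3 constitutive catalytic genes above 0, but each of the 42 intervals includes 0.

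Immunoproteasome genes had lower fitted values in CD25-high cells, none of them past the threshold. The 5 log2 fold changes ran from -0.43 to -0.12 with a median of -0.38, against 0.05 over the 36 constitutive genes and 0.01 over all tested genes. Single libraries moved these medians: the immunoproteasome median was -0.21 without CD25-high library 1, and the constitutive median was 0.18 without CD25-low library 1 and 0.24 without both libraries numbered 1. The genes come from the same 6 libraries and were not tested as a list.

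Psmb9 (chr17:34181987-34187764), the inducible counterpart of the caspase-like subunit, was at 88.4, 163 and 193 CPM in the CD25-high libraries (1, 2 and 3) and at 145, 217 and 237 CPM in the CD25-low libraries (1, 2 and 3). The groups overlapped, with CD25-high library 1 lowest of all and each CD25-high library below the CD25-low library of its number. Its log2 fold change was -0.43 ± 0.30 (SE, n = 3 and 3; 95% interval -1.09 to 0.23; edgeR adjusted p = 0.649), and without CD25-high library 1 it was -0.17. With the block the SE was 0.16 and the edgeR adjusted p 0.112, the lowest of any member in that fit.

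Psmb8 (chr17:34197721-34201454), which takes the place of the chymotrypsin-like subunit, was at 96.8, 152 and 154 CPM in the CD25-high libraries in order and at 158, 137 and 144 CPM in the CD25-low libraries. CD25-high library 1 stood below the other 5, which were close together. The log2 fold change was -0.12 ± 0.22 (SE), and without CD25-high library 1 it was 0.07. Psmb10 (chr8:105935735-105938444), the inducible trypsin-like subunit, was at 12.4, 16.7 and 19 CPM in the CD25-high group and at 18.5, 15.7 and 28.1 CPM in the CD25-low group, a log2 fold change of -0.38 ± 0.31 (SE) with overlapping groups. Without CD25-low library 3 it was -0.10.

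Psme1 (chr14:55578123-55581529) and Psme2 (chr14:55587441-55591113) encode the alpha and beta subunits of PA28, which opens the core gate without ATP. Psme1 was at 156, 204 and 194 CPM in the CD25-high libraries (1, 2 and 3) and at 207, 251 and 234 CPM in the CD25-low libraries (1, 2 and 3). Psme2 was at 21.5, 28.3 and 26.5 CPM in the CD25-high group and at 35.5, 34.4 and 31.4 CPM in the CD25-low group. For both genes every CD25-high library was below every CD25-low library, a pattern found in 9.54% of all tested genes. Their log2 fold changes were -0.32 ± 0.19 (SE, edgeR adjusted p = 0.585) for Psme1 and -0.41 ± 0.23 (SE, edgeR adjusted p = 0.559) for Psme2. Without CD25-high library 1 they were -0.21 and -0.30. Psme2 matches the protein-coding gene Psme2b over 794 bases at 99.4% identity, so reads of the 2 genes may be divided between them. Psme2b itself was at 20.1, 20.3 and 10.3 CPM in the CD25-high group and 28.2, 28.6 and 14.3 CPM in the CD25-low group.

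**Figure D2:**
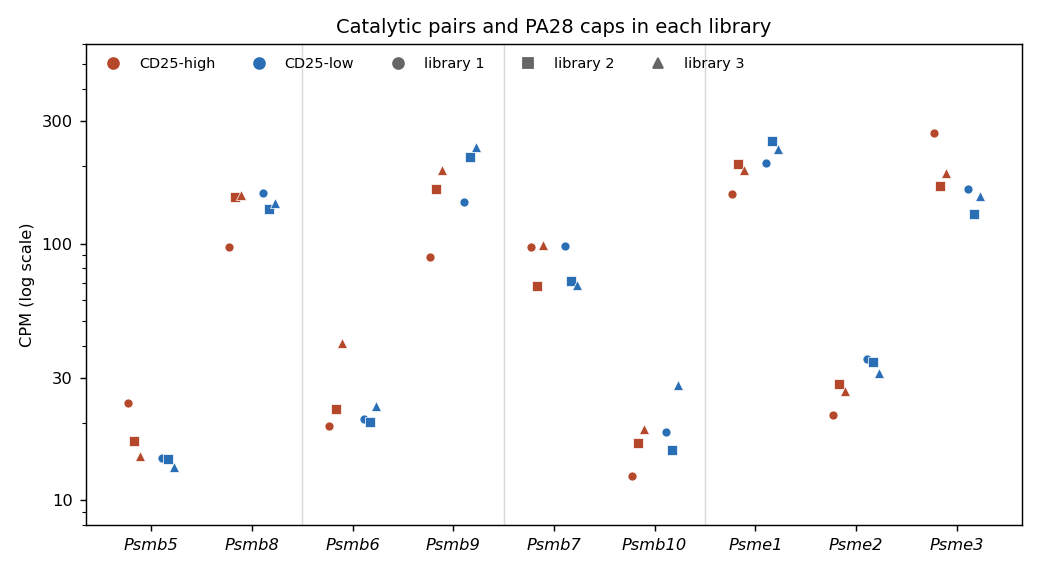
CPM on a log scale of the 3 constitutive catalytic genes, each beside its inducible partner, and of the PA28 genes, with 1 point per library, colour for the CD25 group and shape for the library number. CD25-high library 1 is the lowest point for Psmb8, Psmb9, Psmb10, Psme1 and Psme2; the groups are separate for Psmb5, Psme1, Psme2 and Psme3.

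The constitutive catalytic genes had fitted values above 0, from 0.14 to 0.39 with a median of 0.37, and none passed the threshold. Psmb5 (chr14:54614119-54618022), the chymotrypsin-like subunit, was at 23.9, 17 and 14.8 CPM in the CD25-high libraries (1, 2 and 3) and at 14.6, 14.4 and 13.4 CPM in the CD25-low libraries (1, 2 and 3). The groups did not overlap (higher in 7.41% of all tested genes), but CD25-high library 3 was within 1 CPM of a CD25-low library, and the log2 fold change was 0.39 ± 0.28 (SE, edgeR adjusted p = 0.669), or 0.17 without CD25-high library 1. Psmb6 (chr11:70525367-70527858), the caspase-like subunit, was at 19.4, 22.6 and 41.1 CPM in the CD25-high group and 20.7, 20.1 and 23.2 CPM in the CD25-low group. CD25-high library 3 alone was high, and without it the log2 fold change of 0.37 ± 0.31 (SE) became -0.02. Psmb7 (chr2:38588036-38644087), the trypsin-like subunit, was at 96.6, 68.1 and 98.6 CPM in the CD25-high group and 98.2, 71.7 and 69.2 CPM in the CD25-low group, with a log2 fold change of 0.14 ± 0.23 (SE). Psmb7 shares 405 exonic bases with Nek6 on the other strand, which was at 30.9, 10.6 and 12.7 CPM in the CD25-high group and 4.27, 4.34 and 6.74 CPM in the CD25-low group. Nek6 rose with the block (edgeR adjusted p = 0.0302) and with DESeq2 (adjusted p = 0.00566), but not without the block (edgeR adjusted p = 0.13). The block call was lost without pair 1 (edgeR adjusted p = 0.14). The part of Nek6 in the Psmb7 counts was not tested.

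The exchange of subunits was examined as the ratio of each inducible gene to the constitutive gene it replaces. The count ratio of Psmb9 to Psmb6 was 4.56, 7.23 and 4.7 in CD25-high libraries 1, 2 and 3 and 7, 10.8 and 10.2 in CD25-low libraries 1, 2 and 3. The CD25-high ratio was below the CD25-low ratio of the same number in all 3 pairs, by 0.62, 0.58 and 1.12 on the log2 scale, although the groups overlapped. The mean log2 ratio differed by -0.77 (exact two-sided permutation p = 0.2, 0.3 adjusted over the 3 ratios), and 3 libraries against 3 cannot give a p below 0.1. Psmb8 to Psmb5 was 4.05, 8.97 and 10.4 in CD25-high and 10.8, 9.53 and 10.7 in CD25-low libraries, and library 1 alone gave most of the mean log2 difference of -0.52 (exact permutation p = 0.2), with differences by pair of -1.42, -0.09 and -0.04 and a value of -0.10 without CD25-high library 1. Psmb10 to Psmb7 was 0.128, 0.245 and 0.192 in CD25-high and 0.188, 0.219 and 0.406 in CD25-low libraries, a mean log2 difference of -0.49 (exact permutation p = 0.5) with pair 2 in the other direction. That difference was -0.16 without CD25-low library 3 and -0.24 without CD25-high library 1.

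Per kilobase of transcript, the inducible genes made up 50%, 68.2% and 62.2% of the summed catalytic level in CD25-high libraries 1, 2 and 3, and 63.2%, 71.4% and 73.3% in CD25-low libraries 1, 2 and 3. The group means were 60.1% ± 9.26 and 69.3% ± 5.36 (SD, n = 3 each), and the groups overlapped.

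**Figure D3:**
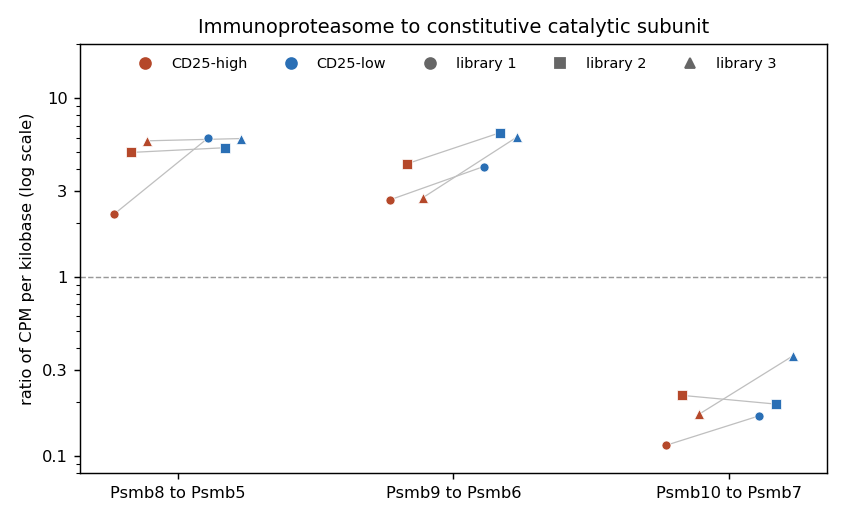
Ratio of CPM per kilobase of each inducible catalytic gene to its constitutive counterpart, on a log scale, with 1 point per library and lines joining libraries of the same number. Psmb8 and Psmb9 are above their counterparts in all 6 libraries (ratios of 2.24 to 6.39) and Psmb10 is below Psmb7 in all 6 (0.114 to 0.36).

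The 7 alpha ring genes had log2 fold changes of -0.47 to 0.18 with a median of -0.14, and 0 of 7 passed the test. Psma6 (chr12:55384222-55418454) had the most negative value among members. It was at 137, 157 and 210 CPM in the CD25-high libraries (1, 2 and 3) and at 309, 184 and 205 CPM in the CD25-low libraries (1, 2 and 3). CD25-low library 1 stood above the other 5, the groups overlapped, and the log2 fold change was -0.47 ± 0.25 (SE, edgeR adjusted p = 0.543). Without CD25-low library 1 it was -0.21. Psma7 had a log2 fold change of -0.16 ± 0.21 (SE) and Psma1 one of 0.18 ± 0.24 (SE). The 4 structural beta genes, which have no proteolytic site, ran from -0.13 ± 0.27 (SE) for Psmb1 to 0.27 ± 0.22 (SE) for Psmb2, with a median of 0.01.

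The 6 ATPases that form the unfolding ring of the 19S particle had values close to 0. Their log2 fold changes ran from -0.14 ± 0.28 (SE) for Psmc3 to 0.09 ± 0.20 (SE) for Psmc1 with a median of -0.06, and all 6 intervals lay within 2-fold. Psmc5 had a log2 fold change of -0.09 ± 0.21 (SE). CD25-low library 1 was high for several of them: Psmc3 was at 95.8 CPM there and at 46.5 to 66.3 CPM in the other 5 libraries.

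Among the 11 non-ATPase genes of the 19S particle, log2 fold changes ran from -0.18 to 0.40 with a median of 0.10, and all 11 intervals lay within 2-fold. Psmd1 (chr1:86064387-86139151), the large scaffold subunit of the base, was at 372, 364 and 357 CPM in the CD25-high libraries (1, 2 and 3) and at 334, 261 and 244 CPM in the CD25-low libraries (1, 2 and 3). Psmd11 (chr11:80428615-80473248), a scaffold subunit of the lid, was at 89.2, 71.4 and 74.7 CPM in the CD25-high group and at 61.5, 51.6 and 65.9 CPM in the CD25-low group. For both, all CD25-high libraries were above all CD25-low libraries, a pattern found in 7.41% of all tested genes. The log2 fold changes were 0.38 ± 0.19 (SE, edgeR adjusted p = 0.498) for Psmd1 and 0.40 ± 0.21 (SE, edgeR adjusted p = 0.531) for Psmd11. Psmd3, another subunit of the lid, had overlapping groups and a log2 fold change of 0.37 ± 0.27 (SE).

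Psmd5, Psmd9 and Psmd10 carry Psmd symbols but encode chaperones that help assemble the ATPase base. Their log2 fold changes were 0.10 ± 0.23, -0.23 ± 0.30 and -0.31 ± 0.33 (SE), and the groups overlapped for each. Of the Psmd9 exons, 25.5% of the bases are shared with Gm26745 on the other strand, and the strand setting of the counts is not given in the sources used here.

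Psme3 encodes PA28 gamma, the nuclear activator that interferon does not induce, and had the lowest p of the 42 genes. It was at 271, 167 and 189 CPM in the CD25-high libraries (1, 2 and 3) and at 163, 130 and 153 CPM in the CD25-low libraries (1, 2 and 3). Every CD25-high library was above every CD25-low library (7.41% of all tested genes), by a small margin for library 2. The log2 fold change was 0.49 ± 0.22 (SE, n = 3 and 3; 95% interval -0.01 to 0.99; edgeR adjusted p = 0.458, and 0.122 with the block). Leaving out CD25-high library 1 gave 0.26. Psme4, the PA200 activator, was at 206, 151 and 134 CPM in the CD25-high group and 158, 127 and 125 CPM in the CD25-low group (log2 fold change 0.26 ± 0.22 SE, or 0.06 without CD25-high library 1), and its groups overlapped. Among the 42 members, 4 had separate groups with CD25-high above (Psmb5, Psmd1, Psmd11 and Psme3) and 2 with CD25-high below (Psme1 and Psme2), against 16.9% of all tested genes in either direction.

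Psma8, the testis core subunit, was near the limit of detection. It was at 0.397, 1.76 and 3.61 CPM in the CD25-high libraries (1, 2 and 3) and at 0.164, 0.128 and 1.7 CPM in the CD25-low libraries (1, 2 and 3), from 151 reads in all. The groups overlapped, and the 95% interval of its log2 fold change of 1.51 ran from -0.91 to 3.94.

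RNA levels varied widely among the subunits. As CPM per kilobase of the principal transcript, averaged over the 6 libraries, levels spanned 41-fold from 4.69 for Psmd9 to 192 for Psma6, with a median of 37.3 and Psma8 left out. Psme1 came next at 187, then Psma7 at 130, Psmb9 at 129 and Psmd1 at 103. The ATPases lay within 2.01-fold of each other (Psmc6 at 37 to Psmc5 at 74.3), whereas the alpha ring spanned 19.9-fold from Psma3 at 9.64 to Psma6. Among catalytic genes the order per kilobase was Psmb9, Psmb8 at 86.2, Psmb7 at 72.2, Psmb6 at 30.7, Psmb5 at 18.2 and Psmb10 at 14. Neighbours in this order overlapped over the libraries, except Psmb7 and Psmb6. The order depends on the length used. Per kilobase of all annotated exons, Psma6, Psme1 and Psmd9 kept ranks 1, 2 and 41 of the 41 genes, but Psma7 moved from rank 3 to 14, Psmb9 from 4 to 8 and Psmd1 from 5 to 12, and Psmc5 was at rank 3. On that scale Psmb5 at 18.2 stood above Psmb6 at 13.1, and the ATPases ran from 23.7 (Psmc6) to 70.2 (Psmc5).

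**Figure D4:**
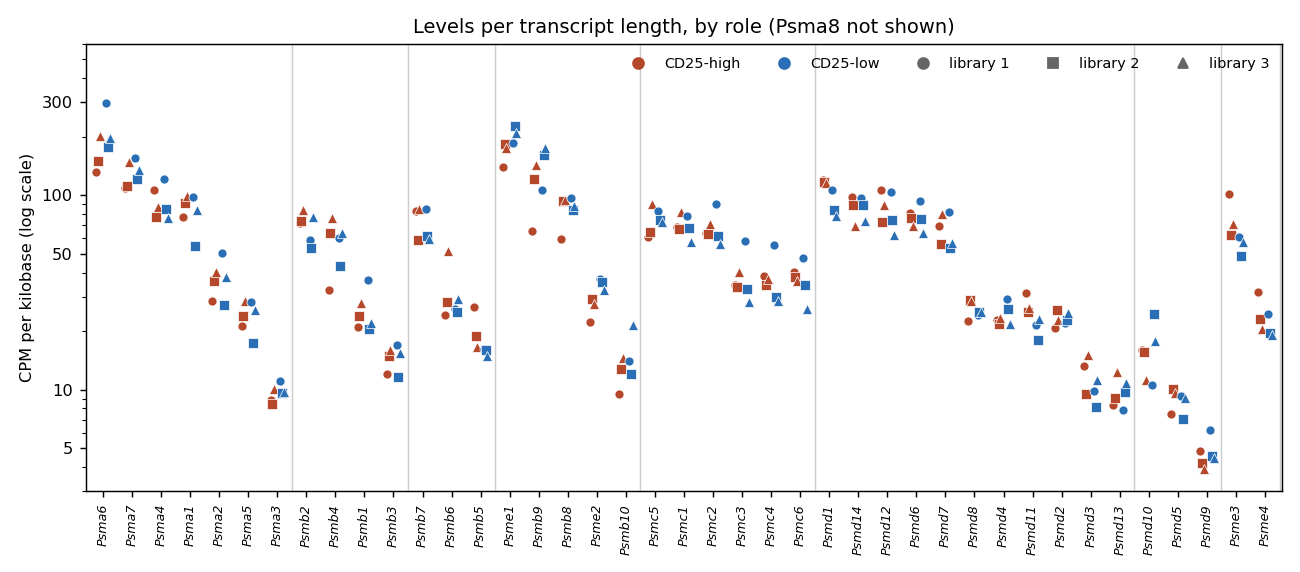
Level of each member as CPM per kilobase of its principal transcript, on a log scale, grouped by role, with 1 point per library. The ATPases form a tight group between Psmc6 and Psmc5, while the alpha ring runs from Psma6 at the top to Psma3 near the bottom.

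Some of these levels belong to genes with near copies elsewhere in the genome. Transcripts of 9 members matched another annotated gene at 95% identity or more over at least 100 bases, most of them processed pseudogenes. In 8 members (Psma4, Psma5, Psmb3, Psmb5, Psmc1, Psmd11, Psmd2 and Psme2) such matches covered 50% or more of the transcript. The median level of these 8 was 24.1 CPM per kilobase, and that of the 33 other members was 56.8, with Psma8 left out. Psma3, the lowest of the alpha ring, matched 8 genes over 32.5% of its length. How reads with several matches were counted is not given in the sources used here, and the part of copies in these levels was not tested. Psmb5 in the catalytic ratios is among these genes.

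Library 1 differed from libraries 2 and 3 within both groups. For the immunoproteasome genes, log2 CPM in library 1 minus the mean of libraries 2 and 3 had a median of -0.50 in CD25-high and -0.18 in CD25-low cells. Psmb9 had the lowest value of the 5 in both groups, -0.64 in CD25-low cells. Over the ATPases the medians were -0.08 in CD25-high and 0.63 in CD25-low cells, over the alpha ring -0.29 and 0.54, and over all tested genes -0.01 and -0.03. Without both libraries numbered 1, 0 of 42 members passed the test.

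**Figure D5:**
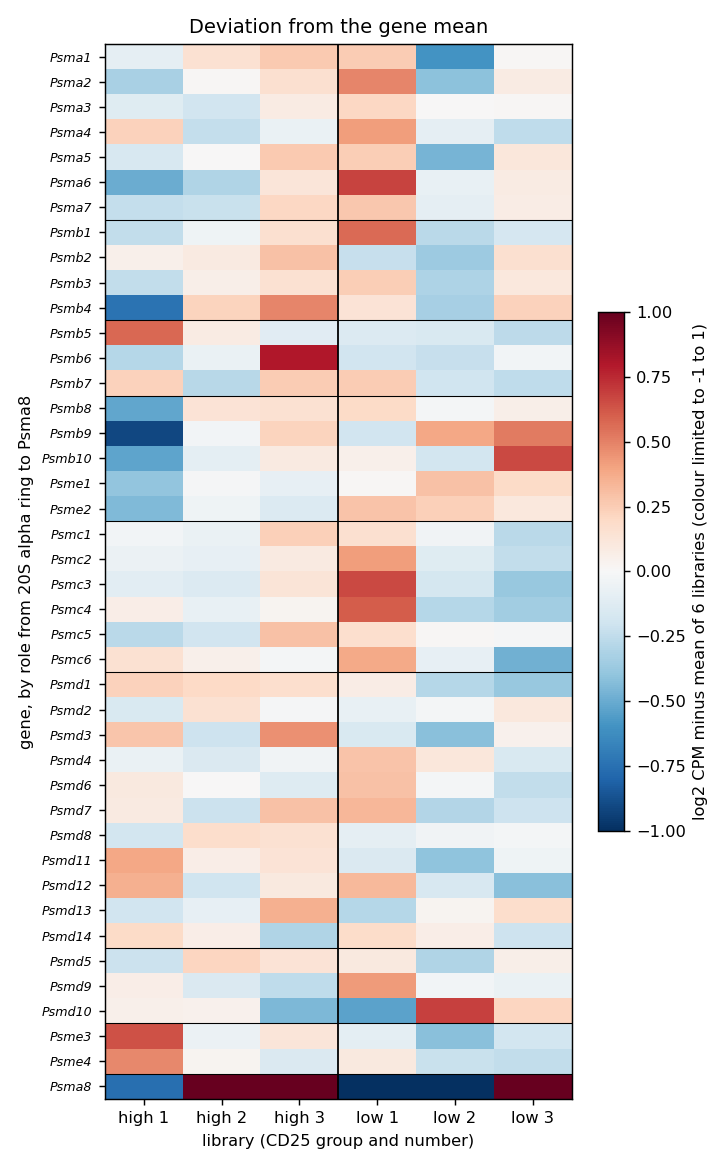
Log2 CPM of each member minus its mean over the 6 libraries, with colour limited to -1 to 1, genes in order of role and libraries in columns. CD25-high library 1 is blue over the immunoproteasome genes, and CD25-low library 1 is red over most alpha ring and ATPase genes.

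Genes that work with or upstream of the proteasome were read from lists outside the symbol rule, with the edgeR test. Of 5 chaperones that assemble the core, 0 passed, also with the block and DESeq2, and 0 had an unadjusted p under 0.05, with a median log2 fold change of -0.23. Pomp, which guides beta ring assembly, was at -0.23 ± 0.19 (SE), Psmg1 at -0.60 ± 0.36 (SE) and Psmg4, at 1.23 to 10.2 CPM, at -0.86 ± 0.76 (SE). Of 11 partners and shuttle factors of the 19S particle, 0 passed in any of the 3 fits, with a median of 0.24. An unadjusted edgeR p under 0.05 was found for 0 without the block (11.1% of all tested genes) and for 3 with it (18.1%). The ubiquilin Ubqln4 was at 0.57 ± 0.33 (SE), Ubqln2 at 0.53 ± 0.36 (SE) and the deubiquitinase Uchl5 at 0.41 ± 0.27 (SE), or 0.06 without CD25-high library 1. Of 6 ubiquitin genes and E1 enzymes, 0 passed in any of the 3 fits, with a median of 0.37. Unadjusted, 0 had an edgeR p under 0.05 without the block, 2 with it (18.1% of all genes) and 1 with DESeq2 (12%). Rps27a, which encodes ubiquitin fused to a ribosomal protein, was at 12.9, 9.21 and 9.25 CPM in the CD25-high group and 7.77, 5.54 and 5.13 CPM in the CD25-low group. Its groups were separate (higher in 7.41% of all tested genes), with a log2 fold change of 0.77 ± 0.35 (SE) and an edgeR adjusted p of 0.462. Uba1, the main ubiquitin-activating enzyme, was at 633, 580 and 540 CPM in the CD25-high group and 505, 378 and 495 CPM in the CD25-low group (log2 fold change 0.35 ± 0.19 SE). Uba6, the other ubiquitin E1 enzyme, was at 0.39 ± 0.30 (SE), or -0.03 without CD25-high library 1.

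Of 10 genes of the NRF1 pathway, 0 passed in edgeR, with the block or with DESeq2, with a median log2 fold change of -0.19. An unadjusted edgeR p under 0.05 was found for 1 without the block (11.1% of all tested genes) and for 2 with it (18.1%). Mafk, a small MAF partner of NRF1 and NRF2, was at 9.24, 8.09 and 7.73 CPM in the CD25-high group and at 17.5, 13.8 and 16.2 CPM in the CD25-low group. Its groups were separate (lower in 9.54% of all tested genes), with a log2 fold change of -0.92 ± 0.29 (SE) and an edgeR adjusted p of 0.267. Ufd1, a cofactor of the p97 segregase, was at -0.40 ± 0.21 (SE). Nfe2l2, which encodes NRF2, was at -0.74 ± 0.43 (SE). It was at 81.1, 32.9 and 19.9 CPM in the CD25-high group and 89.5, 57.2 and 77.3 CPM in the CD25-low group. With the block its edgeR adjusted p was 0.0778. That value was 0.035 without pair 1, 0.0151 without pair 2 and 0.424 without pair 3.

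Of 12 class I peptide loading genes, 0 passed the edgeR test and 3 had an unadjusted p under 0.05 (11.1% of all tested genes). With the block 1 of 12 passed (4.63% of all genes), and with DESeq2 also 1 (2.44%). Unadjusted, 7 of 12 had an edgeR p under 0.05 with the block (18.1% of all genes). The median log2 fold change was -0.27. The class I heavy chain gene H2-K1 was at 375, 537 and 527 CPM in the CD25-high libraries (1, 2 and 3) and at 933, 816 and 727 CPM in the CD25-low libraries (1, 2 and 3). Its groups did not overlap (lower in 9.54% of all tested genes), and edgeR gave a log2 fold change of -0.78 ± 0.20 (SE, adjusted p = 0.153). H2-K1 fell with the block (edgeR adjusted p = 0.0178) and with DESeq2 (adjusted p = 0.0356), but with the block and without pair 1 the edgeR adjusted p was 0.0917. The lectin chaperones of the endoplasmic reticulum had values in the other direction, Calr at 0.54 ± 0.18 (SE) and Canx at 0.40 ± 0.17 (SE), neither past the threshold. Tap1, the peptide transporter gene that shares 212 exonic bases with Psmb9 on the other strand, was at 107, 105 and 107 CPM in the CD25-high group and 129, 127 and 121 CPM in the CD25-low group.

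Of 12 tested interferon signalling genes, 2 fell in CD25-high cells and 0 rose, with a median log2 fold change of -0.51. Genes lower in CD25-high cells made up 0.501% of all tested genes. Unadjusted, 6 of the 12 had an edgeR p under 0.05 (11.1% of all tested genes), and 9 with the block (18.1%). Ifngr2, at 0 to 1.33 CPM, was left out of the test. The lowest value was -1.68 ± 0.56 (SE, edgeR adjusted p = 0.297) for the feedback inhibitor Socs1, at 0.85 to 4.43 CPM. Only 1 of the 12 had a value above 0, Ifngr1, a chain of the interferon-gamma receptor. It was at 0.60 ± 0.47 (SE), was higher in CD25-high in 3 of 3 pairs, and did not pass (edgeR adjusted p = 0.698, and 0.0509 with the block). Ifnar2, a chain of the type I interferon receptor, was at 53.8, 34.3 and 33.8 CPM in the CD25-high libraries (1, 2 and 3) and at 105, 134 and 105 CPM in the CD25-low libraries (1, 2 and 3). It fell (95% interval of the log2 fold change -2.04 to -0.95, edgeR adjusted p = 0.0257), and was lower in CD25-high in 3 of 3 pairs. Stat2, which carries the signal of that receptor, was at 28.5, 24.3 and 21.7 CPM in the CD25-high group and 70.5, 61.7 and 54.3 CPM in the CD25-low group. It fell by 1.32 on the log2 scale (SE 0.22, edgeR adjusted p = 0.0273), and was lower in 3 of 3 pairs. In the fit without the block, both calls were lost without CD25-high library 2 or 3, or without any 1 of the CD25-low libraries (highest edgeR adjusted p 0.196 for Ifnar2 and 0.216 for Stat2). Both genes also fell with the block (edgeR adjusted p = 8.56e-04 and 0.00136) and with DESeq2 (adjusted p = 1.09e-05 and 3.06e-05). With the block, leaving out any 1 pair kept both calls (highest edgeR adjusted p 0.00157 and 0.00972). With the block the kinase gene Jak1 fell as well (log2 fold change -0.69, edgeR adjusted p = 0.0225, against 0.217 without the block). That call was lost without pair 3 (edgeR adjusted p = 0.158), and DESeq2 did not call Jak1 (adjusted p = 0.0858). These receptor and kinase genes act upstream of the immunoproteasome genes, whose own differences did not pass the test, and whether the difference between the 2 lists is larger than the spread was not tested.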

How the data were processed

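Libraries (3 CD25-high, 3 CD25-low) were made with a NuGEN Ovation v2 RNA-Seq kit, per the labels' protocols. The deposited values are raw counts, whole reads per Ensembl gene. The submitters' processing notes list Novoalign, DESeq2, mm10 and hg19 without roles; the counting tool, annotation and strand setting were not given in the sources. GENCODE M21 (GRCm38) named 15169 of 15445 rows.

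Counts were tested with edgeR 4.0.16 in R 4.3.3 (quasi-likelihood F test, TMM factors, filterByExpr with a minimum count of 10, group only). P-values were adjusted by Benjamini-Hochberg over 12987 genes, with a threshold of 0.05. The SE was derived from the fold change and the square root of its F value. CPM used TMM-adjusted totals. For pairing, deviations from the group mean were correlated between libraries of equal number (0.34, 0.19 and 0.16, above the limit of 0.1). CD25-high library 2 and CD25-low library 3 reached 0.13, so pairs 2 and 3 are less firmly set than pair 1. On simulated data for this comparison (12622 genes), edgeR recovered 19 of 100 genes changed by 1 and 82 of 100 changed by 2 on the log2 scale. Copies of transcripts were found with blastn 2.17.0, a step added after the values were seen.

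Alternatives were the block, DESeq2 1.42.0, other scalings and filters, and libraries left out. Members and lists were chosen with earlier results of these data known. Named genes are Il2ra, the immunoproteasome and catalytic genes, up to 3 genes of smallest p in each list, and some members that are the highest or lowest of their list. Tap1, Nek6, Psme2b, Gm26745 and the genes with copies are named for shared sequence. The single T cell markers, Cd22, Itgam, Ifngr1, Ifngr2 and Socs1 are named after their values were seen. No libraries of a group were alike within sampling noise (chi-square over its degrees of freedom was 27.8 to 98.4).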

Additional observations from a re-analysis of the deposited data

How the results depend on the processing

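The count of members past the threshold was 0 of 42 in the fit of edgeR, with the replicate block, with DESeq2 and under each other alternative run. The count over all genes moved. It was 85 with edgeR, 601 with the replicate block, 376 with DESeq2, 380 without both libraries numbered 1, 461, 486 and 536 with the block without pair 1, 2 and 3, and 22 to 130 with 1 library left out. Leaving out both libraries numbered 1, and the block without a pair, were added after the data were seen. The block changed the call of H2-K1, Jak1, Nek6, Itgam, Cd3d and Cd3g among the genes named and of no member.

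Over 26 members, 412 of 441 alternative values kept their direction, and 29 values in 12 genes reversed, none of a gene past the threshold; 4 values in 2 other genes (Psmg4 and Uba6) reversed too. With 1 library left out, the log2 fold change ran from -0.23 to 0.07 for Psmb8, -0.02 to 0.58 for Psmb6, -0.03 to 0.37 for Psma1, -0.28 to 0.18 for Psmb1, -0.21 to 0.33 for Psmb4, -0.34 to 0.24 for Psmc3, -0.01 to 0.20 for Psmc1, -0.28 to 0.02 for Psmc5, -0.57 to 0.00 for Psmd10, -0.02 to 0.22 for Psmd5, -1.31 to 0.56 for Psmg4 and -0.03 to 0.59 for Uba6. Without both libraries numbered 1, and with the block without pair 1, it was 0.12 and 0.12 for Psmb8, 0.01 and 0.00 for Psma7, 0.28 and 0.28 for Psmb1, 0.27 and 0.27 for Psmc3, 0.07 and 0.05 for Psmc5, and 0.24 and 0.25 for Psmg4. With the replicate block, Psmb4 was at -0.01. With the block without pair 2, Psma1 was at -0.06, Psmb4 at -0.31 and Psmd5 at -0.12. With the block without pair 3, Psmb7 was at -0.04, Psmb4 at -0.16 and Psmc1 at -0.10. The cause was not tested. Of simulated 2-fold changes, edgeR recovered 19 of 100, and 13 of 100 with the block. The simulated counts held no difference shared by libraries of the same number, so the rates cannot rank the fits for these libraries. The changed genes were drawn from all genes above a limit on mean CPM, not from members alone. Members had a median SE of 0.23, against 0.37 over all tested genes, and the SE of the drawn genes is not given. Whether the rates hold for members was not tested, and changes below 2-fold were not simulated. Single changes of the size seen in members could still pass undetected.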
